A study of Saccharomyces cerevisiae with 6 samples.

Results

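Of the 5772 budding yeast genes for which the deposited table lists both a transcript and its open reading frame (ORF), 818 had 400 nt or more of annotated transcript outside the ORF. The rule for these 818 transcripts with long untranslated ends used annotated lengths and no read values: rows for the mRNA and for the ORF were paired by systematic name, and the length of the ORF was subtracted from that of the mRNA. Reads on the ORF, and reads on the transcript outside the ORF (mRNA minus ORF), were then followed in 6 strand-specific libraries of rRNA-depleted total RNA. Wild-type cells were grown to mid-log phase with glutamine or with proline as the nitrogen source, and dal80Δ cells with proline, with 2 biological replicates in each of the 3 groups. All strains carried ura3, his3 and trp1 mutations. The mutant, in which kanMX replaces DAL80, was MATa and the wild type was MATα, so the deletion and the mating type cannot be told apart in the comparison of strains, and each genotype was represented by 1 strain.

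In yeast, the small ribosomal subunit enters an mRNA at its cap and scans the 5′ leader for the first suitable start codon, so an ATG upstream of the ORF can intercept it, as in the leader of GCN4. The 3′ untranslated region holds sites for proteins that set mRNA stability and location, among them the PUF family, which binds motifs starting with TGTA. Yeast leaders are usually short, and transcription that starts farther upstream can give a long RNA that runs through the promoter of the gene. Nitrogen catabolite repression (NCR) keeps genes for the use of poor nitrogen sources silent in glutamine. In proline the GATA factors Gln3 and Gat1 activate them through GATAAG motifs, and Dal80, a GATA factor without an activation domain, represses part of the same genes.

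The outside part of the 818 members ranged from 400 to 8055 nt, with a median of 546 nt against 170 nt in the 4954 pairs under the limit. The median 5′ part was 251 nt and the median 3′ part 264 nt (51 and 97 nt in the other pairs). The 5′ part was the longer in 394 members and the 3′ part in 423, and 45 members had 300 nt or more on both sides. The limit fell in a continuous distribution: the members just inside it were GSM1 and YMR102C (400 nt each) and MYO4 and HLR1 (401 nt), and the pairs just outside were SWI4, GEP5 and CDC25 (399 nt) and RTT105 (398 nt). Members also had somewhat longer ORFs (median 1359 against 1189 nt), and 692 of them (84.6%) were classed as verified ORFs, against 85.3% of the other pairs.

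Long ends ran into neighbouring genes more often than short ones. In 47 members (5.75%, against 0.222% of the other pairs) the outside part overlapped another ORF or RNA gene on the same strand, and in 183 members (22.4%, against 8.98%) one on the opposite strand. Where the overlap is on the same strand, reads of the neighbour count as outside reads of the member. The 2 longest outside parts show both situations. The 3′ part of RRG8 (8044 nt) covers YPR117W for 7470 nt, and the 5′ part of YFL054C (5098 nt) overlaps no same-strand gene but lies opposite other genes for 1776 nt. Next in length were FLO10 (3396 nt upstream), MAK11 (3399 nt upstream, 3249 nt of them within SPT23), YNR073C (3128 nt downstream) and GAL7 (2901 nt upstream, 2100 nt of them within GAL10).

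ATG triplets were more common in the 5′ parts of members. They numbered 3330 in all, or 1.15 per 100 nt, against 0.449 per 100 nt in the other pairs, and 432 members (52.8%) had at least 1, against 18.4% of the other pairs. The rate depended on distance. Within 50 nt of the ORF start both sets had few ATGs (0.30 per 100 nt in members and 0.29 in the other pairs), and the rate rose with distance in members, to 0.93 between 101 and 200 nt and 1.91 between 801 and 1600 nt. In the 771 members without same-strand overlap the last value was 1.77. At 201 to 400 nt, the farthest class that the other pairs reach, members had 1.27 and the other pairs 0.92 per 100 nt. Members gave 68196 nt from 488 5′ parts to this class, and the other pairs 11942 nt from 237. The other pairs thus reached less far into it, and the part of this in the difference was not tested.

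**Figure D1:**
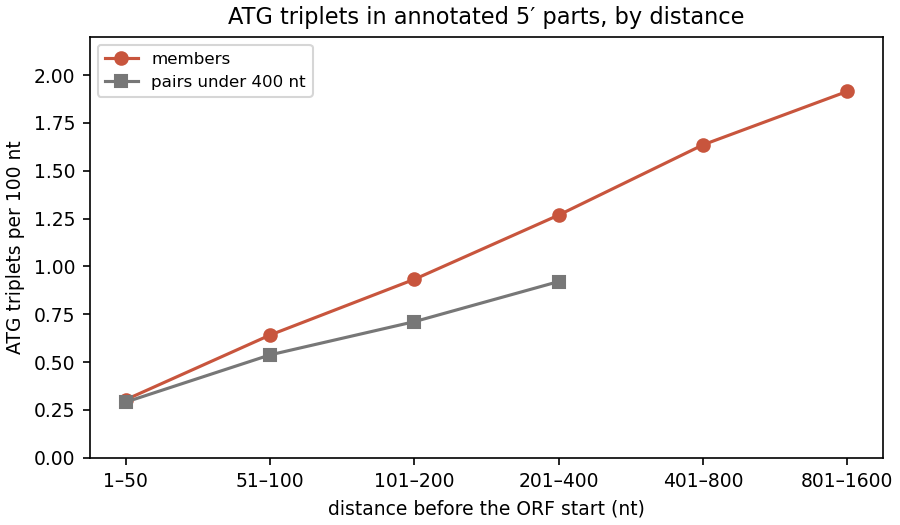
ATG triplets per 100 nt of annotated 5′ part (y axis) by distance before the ORF start in nt (x axis), for members and for pairs under 400 nt. Both lines start at about 0.3 within 50 nt, and that of the members rises to 1.91 at 801 to 1600 nt.

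The leader of GCN4, the transcription activator of amino acid biosynthesis genes, is the textbook case of upstream ORFs, and its 602 nt held 4 ATGs. Their surroundings are shown with the ATG in capitals (RefSeq, build R64, minus strand, 5′ to 3′, named by the distance of the A from the ORF start), because each opens a short reading frame of 3, 2, 3 and 3 codons before a stop:
GCN4, 361 nt upstream (chr5:140108-140137): agatcattgaaaaATGgcttgctaaaccga
GCN4, 293 nt upstream (chr5:140040-140069): tattaagagaattATGtgttaaatttattg
GCN4, 176 nt upstream (chr5:139923-139952): accaattgctatcATGtacccgtagaattt
GCN4, 151 nt upstream (chr5:139898-139927): aattttattcaagATGtttccgtaacggtt
The leaders of CLN3 (a G1 cyclin) and HOL1 (a transporter of the plasma membrane) held 1 ATG each. These open frames of 3 and 6 codons, the ATG included, before a stop:
CLN3, 315 nt upstream (chr1:67819-67848): gtctgccagtcaaATGgatttctgaggaaa
HOL1, 215 nt upstream (chr14:730385-730414): acgatactatttcATGctattactaccaag

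GATAAG motifs, searched on both strands, were about as frequent in the 500 nt before the ORF of members (184, or 22.5%) as in the other pairs (22.7%). They can lie inside the annotated transcript: 141 of 818 members and 168 of 4954 other pairs had GATAAG or its complement CTTATC in the 5′ part. The 5′ parts of members are longer (median 251 against 51 nt). Motifs in the 5′ part of 5 members that rose in proline or in dal80Δ are shown in capitals, since the values of these members are described further on. Windows are from R64, on the strand of the gene, and named by the distance of the first capital from the ORF start. These 5 were picked by hand, and a link between a motif in the 5′ part and a rise was not tested. The GDH3 windows overlap. A further CTTATC in them, which starts on the last capital of the first motif, is not marked.
DAL5, 898 nt upstream (chr10:718756-718785): gtttcttcttatGATAAGgatgttagttta
DAL5, 393 nt upstream (chr10:719261-719290): ctatcatttgctGATAAGgtgctacagcgc
DAL5, 347 nt upstream (chr10:719307-719336): ttgttccttttcGATAAGagtccctcgcgt
DAL5, 171 nt upstream (chr10:719483-719512): atacggctaataCTTATCattatctggttt
DUR3, 335 nt upstream (chr8:74562-74591): tttgggtgttatCTTATCgggatattttat
DUR1,2, 324 nt upstream (chr2:642517-642546): gcaagccattgaGATAAGacacgcagatgt
GDH3, 271 nt upstream (chr1:31284-31313): aagggtatattaCTTATCttatcgataagc
GDH3, 260 nt upstream (chr1:31295-31324): acttatcttatcGATAAGcagtattgatat
OPT2, 302 nt upstream (chr16:927222-927251): attagcaatgaaGATAAGtaacattaaaaa

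TGTANATA, the motif of the RNA-binding protein Puf3, was searched on the transcript strand of the 3′ parts. It occurred in 113 members (13.8%) and in 10.6% of the other pairs, but per length it was rarer in the long 3′ parts (0.448 per 1000 nt) than in the short ones (1.11 per 1000 nt). Of the 8 members on the list of PUF and mRNA decay genes, 4 had a site, including PUF3 itself, and these 4 are shown with the motif in capitals and named by its distance after the ORF:
PUF3, 371 nt downstream (chr12:121686-121715): attatatttacTGTACATAataaatcaagc
NAM7, 375 nt downstream (chr13:426319-426348): tataagataaaTGTATATAactgccaacaa
DHH1, 555 nt downstream (chr4:169837-169866): tattaatactgTGTATATAtatatatatat
LSM1, 143 nt downstream (chr10:186965-186994): gaggccgtattTGTATATAaattaatatat

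The libraries held 12304015 to 19968312 reads on ORFs. In every library members held between 2083943 and 3411574 ORF reads and between 234842 and 338150 reads outside their ORFs, with a median per member of 77 to 148 reads outside and 491 to 912 on the ORF. DAL80 itself had 16 and 17.7 scaled reads in glutamine, 3537 and 2729 in proline and 6.15 and 2.75 in dal80Δ. The 4 α-specific marker genes summed to 56143 to 77866 scaled reads in the wild type and to 677 to 720 in dal80Δ, and none was at 0, although MF(ALPHA)2 had 0.683 and 1.65 in dal80Δ. The 6 a-specific genes summed to 190 and 237 in wild-type glutamine, 2460 and 2157 in wild-type proline and 6112 and 6958 in dal80Δ. All 6 were called higher in proline in the MATα strain. Between strains 3 were higher in dal80Δ, while AGA2 had 291 and 191 reads in wild-type proline and 93.6 and 126 in dal80Δ. For both marker lists, their part in the results was not tested. Values below are scaled reads, that is reads multiplied by the authors' factor for each library, given as replicate 1 and replicate 2.

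Reads were thinner outside the ORF than on it. As reads per nt over all 6 libraries, the median member had an ORF density of 0.406 (0.361 in the other pairs) and an outside density of 0.137 (0.0389). The ratio of outside to ORF density had a median of 0.356 in members, with quartiles of 0.169 and 0.618, against 0.0757 in the other pairs. It was 0.344 in the members without same-strand overlap. The ratio was higher in each longer class of outside length, from 0.0551 at 101 to 200 nt and 0.175 at 301 to 399 nt to 0.277 at 400 to 499 nt, 0.506 at 700 to 999 nt and 0.605 from 1000 nt on. In this last class 31 of 119 members had same-strand overlap. Its median ORF density was 0.173, against 0.436 to 0.505 in the classes from 301 to 999 nt. The part of either in the ratio was not tested. The ratio also differed with the side: the 188 members with under 20% of their outside length on the 5′ side had a median of 0.56, and the 147 members with 80% or more of it on the 5′ side had 0.408. Members with the outside length spread over both sides had 0.285 (more on the 3′ side, 235 members) and 0.316 (more on the 5′ side, 248 members). How a read that spans the edge of an ORF was counted is not given in the sources used here, and its weight is larger in short ends.

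**Figure D2:**
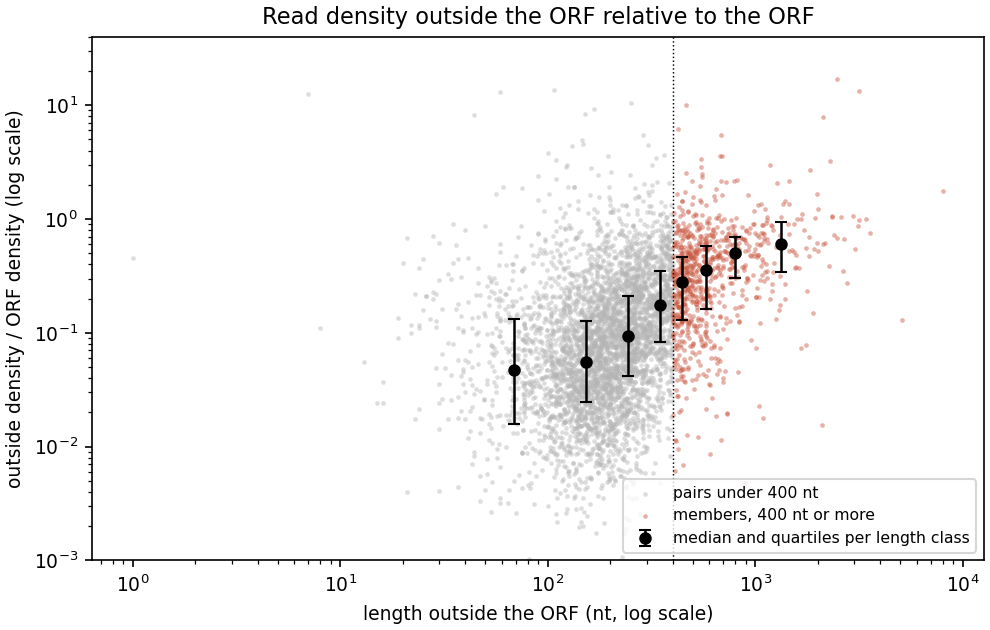
Ratio of the read density outside the ORF to that on the ORF (y axis, log scale, mean over 6 libraries) by the length outside the ORF in nt (x axis, log scale) for members and for pairs under 400 nt. Black points are medians with quartiles per length class, placed at the median length; the medians rise from 0.0551 at 101 to 200 nt to 0.605 from 1000 nt on. Pairs with no outside reads are not drawn.

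Among single members the ORF density spanned from 0.00167 to 76.4. The densest were PMA1, the plasma membrane proton pump (384522 and 420144 scaled reads on the ORF in glutamine, 109988 and 119856 in proline, 107587 and 121633 in dal80Δ), the small membrane protein gene PMP3, and YOR302W, the upstream ORF of CPA1. PMA1 reads outside the ORF numbered 14140 to 40907 per library. At the other end YOR011W-A never had more than 2.05 scaled reads on its ORF, and SMA2 and SET6 had at most 10.8. The highest density ratios belonged to SET6 (17.1), YNR073C (13.3) and SMA2 (10.1). In SET6 the 5′ part runs over MLH3 for 2148 nt. YNR073C has a near-identical paralog, so uniquely mapped reads may miss part of it.

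Outside the ORF lay 9.90% and 10.3% of the reads of all members in wild-type glutamine, 13.3% and 12.1% in wild-type proline, and 8.31% and 9.02% in dal80Δ. The means were 10.1% ± 0.318 (SD, n = 2), 12.7% ± 0.846 and 8.66% ± 0.501. Both proline libraries of the wild type were thus above, and both dal80Δ libraries below, the glutamine libraries, with no overlap between groups. Without the 47 members with same-strand overlap, the order was the same (8.14% and 8.09% in glutamine, 10.5% and 9.34% in proline, 6.55% and 7.18% in dal80Δ). With 2 libraries a group, an exact permutation test cannot reach p = 0.05, so no test was made. The pairs under the limit were also highest in wild-type proline (0.859% and 0.917%, 1.72% and 1.56%, 1.14% and 1.22%), but their dal80Δ libraries lay above the glutamine libraries.

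**Figure D3:**
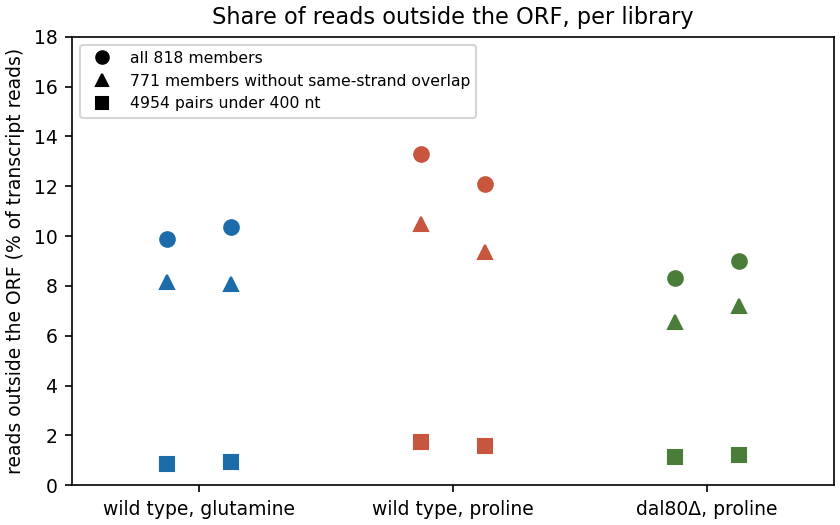
Reads outside the ORF as a percentage of all reads on the transcripts (y axis) in each of the 6 libraries, by group (x axis), for all 818 members (circles), the 771 members without same-strand overlap (triangles) and the 4954 pairs under 400 nt (squares). Each symbol is 1 library. All members lie between 8.31% and 13.3%, with wild-type proline highest.

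The first comparison asks which of these genes respond to the nitrogen source in the wild type. A gene was called when the limma adjusted p over all features tested was at most 0.01 and the log2 fold change at least 1 in size. Of 813 members tested on the ORF, 137 (16.9%) rose in proline and 103 (12.7%) fell. Of all 5645 ORFs tested, 13.0% rose and 15.6% fell. The median log2 fold change was 0.17 in members and 0.04 in all ORFs. Of 116 tested members with 1000 nt or more outside the ORF 25 rose and 9 fell, and of 111 with 700 to 999 nt 13 rose and 14 fell. Of 145 members with 80% or more of the length on the 5′ side, 36 rose and 12 fell, whereas of 185 with 80% or more on the 3′ side 24 rose and 16 fell. Members with an ATG in the leader rose in 99 and fell in 43 of 428 cases, and those without in 38 and 60 of 385. These subsets overlap, and differences between them were not tested. Scaling to total ORF reads is the normalization that the study's methods describe for densities, but the deposited factors are not those of total reads. That scaling moved the median of all ORFs to 0.96 and the calls in members to 424 higher and 19 lower (47.2% and 3.35% of all ORFs).

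The genes described as largest rises and falls here and below were taken from called members whose groups did not overlap. The largest rises on the ORF were in DAL5, LEE1, OPT2, HXT5 and DUR3. DAL5 (YJR152W, transcript at chr10:718166-721318, ORF at chr10:719666-721297, plus strand), the allantoate permease and a classical NCR reporter, had 134 and 154 scaled reads in glutamine, 18479 and 18160 in proline, and 111413 and 113444 in dal80Δ. The log2 fold change in proline was 6.98 ± 0.14 (SE, limma adjusted p = 5.75e-07). LEE1, a zinc finger protein gene, went from 14 and 28.5 to 1497 and 990 (5.86 ± 0.34), and OPT2, an oligopeptide transporter, from 133 and 160 to 7586 and 9022 (5.81 ± 0.16). HXT5, a hexose transporter of slow growth, rose from 30 and 171 to 3488 and 2005 (5.18 ± 0.68), with the glutamine replicates far apart. DUR3 (YHL016C, transcript at chr8:71937-75041, ORF at chr8:72037-74244, minus strand), the urea transporter, rose from 1074 and 813 to 36153 and 24608 (4.99 ± 0.23).

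The largest falls were in PTR2, TAT1, RNR1, CSI2 and CLN2. PTR2, which takes up di- and tripeptides, had 2857 and 4328 scaled reads in glutamine and 223 and 216 in proline (log2 fold change -3.99 ± 0.20, limma adjusted p = 9.11e-06). TAT1, an amino acid permease, fell from 2641 and 2476 to 195 and 153 (-3.88 ± 0.15). RNR1, the large subunit of ribonucleotide reductase, fell from 14827 and 14954 to 2029 and 1622 (-3.04 ± 0.16), and CLN2, a G1 cyclin, from 1267 and 1301 to 283 and 185 (-2.48 ± 0.20). CSI2 fell by 2.52 ± 0.23 on the log2 scale. The falls of all 5 were also called under total ORF read scaling.

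Reads outside the ORF were tested as features of their own. Of 810 members with enough outside reads, 131 (16.2%) rose in proline and 66 (8.15%) fell, against 13.6% and 6.57% of all 3317 outside parts tested. The filter on low values kept 810 of 818 members, but 3317 of all 5772 pairs. Members also had denser outside reads than the other pairs (medians 0.137 and 0.0389 per nt). The part of depth in the shares called, here and in dal80Δ, was not tested. The medians were 0.23 in members and 0.37 in all pairs tested. These counts depended on single libraries: without replicate 1 of wild-type proline 36 members rose and 29 fell, and without replicate 2 there were 62 and 36. Total ORF read scaling gave 451 and 7 (52.7% and 1.69% of all outside parts). The outside parts of LEE1 (from 3 and 3.93 to 146 and 105 scaled reads), OPT2 (18 and 3.93 to 303 and 286) and HXT5 (1 and 5.9 to 128 and 64.4) rose along with their ORFs, by 4.81 ± 0.27, 4.93 ± 0.41 and 4.63 ± 0.46 on the log2 scale. GIP2, for a regulatory subunit of the Glc7 phosphatase, and YJL213W completed the 5 largest rises. GIP2 outside reads went from 7 and 12.8 to 111 and 105 (3.38 ± 0.30), beside 21 and 40.3 to 340 and 274 on its ORF. YJL213W rose by 3.33 ± 0.54, a call lost without replicate 1 of wild-type proline (adjusted p = 0.0176).

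Falls outside the ORF were largest in CSI2 (79 and 73.7 to 6.86 and 6.59 scaled reads), PTR2, HEM12, YOR152C and ECM33. HEM12, an enzyme of heme synthesis with a 431 nt leader, fell from 196 and 204 to 36.3 and 34.4 outside the ORF and from 1614 and 1793 to 303 and 368 on it. ECM33, for a cell wall protein with a 559 nt 3′ part, fell from 2330 and 1925 to 537 and 466 outside and from 53591 and 54594 to 11921 and 12186 on the ORF. In both, ORF and end fell to a similar degree (outside -2.46 ± 0.27 and -2.08 ± 0.21, ORF -2.34 ± 0.16 and -2.17 ± 0.18). YOR152C differed. Its ORF had 453 and 484 scaled reads in glutamine and 531 and 387 in proline, while its outside part (605 nt upstream, 273 nt downstream) fell from 418 and 289 to 74.7 and 82.8 (-2.13 ± 0.26, limma adjusted p = 1.11e-05).

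Where ORF and outside part of a member were both called, they mostly went the same way. Joint calls were counted in members only, and their share over all pairs was not counted, so these counts do not set members apart from other pairs. Both rose in 78 members and both fell in 53, and in DUR1,2 alone the ORF was called higher and the outside reads lower, a fall that was not called with total ORF reads (-0.47, adjusted p = 0.0709). In 57 members the ORF rose with no call outside, and in 50 it fell with no call outside. In 52 the outside reads rose, and in 12 they fell, with no call on the ORF. The ratio was called lower in 21 of the 57 and higher in 15 of the 50.

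**Figure D4:**
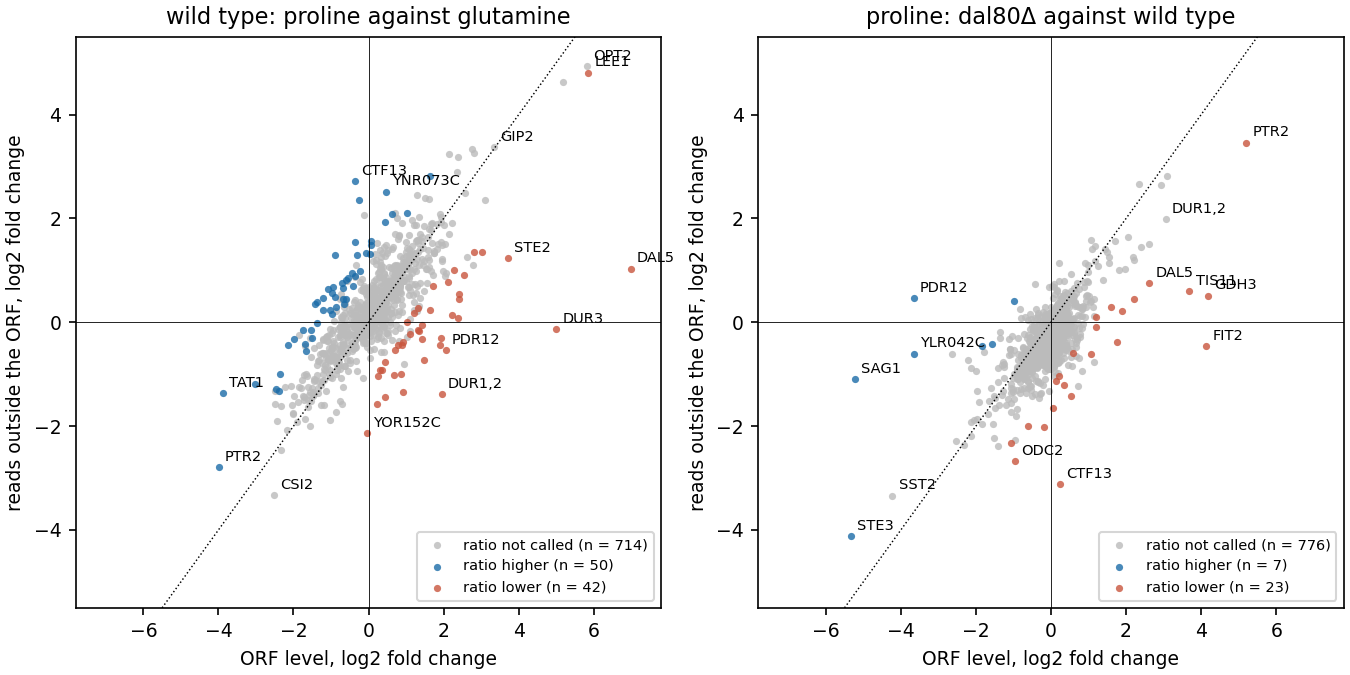
Log2 fold change of reads outside the ORF (y axis) against that of the ORF (x axis) for the 806 members tested on both, in wild type with proline against glutamine (left) and in proline with dal80Δ against wild type (right). Each point is 1 member, coloured by the call on its outside-to-ORF ratio, and the dotted line marks equal change. DAL5 and DUR3 lie far to the right of the line on the left, and PDR12 and SAG1 far to the left of it on the right.

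The ratio of outside to ORF reads within a library does not depend on scaling. It rose in proline in 50 of 806 members (6.20%) and fell in 42 (5.21%), against 9.09% and 2.96% of all 3313 pairs tested. The median of all pairs moved by 0.39 and that of members by 0.14 on the log2 scale. With each library centred on its own median, an alternative chosen after the data were seen, 16 members (of all pairs 3.68%) rose and 77 (of all pairs 5.01%) fell. Without replicate 1 of wild-type proline, the counts were 14 and 16, and without replicate 2 they were 28 and 23. Of the 143 tested members with 80% or more of the length on the 5′ side, 10 rose and 23 fell, and of the 185 with 80% or more on the 3′ side 10 rose and 4 fell. Among the 422 with an ATG in the leader 36 rose and 36 fell, and among the 384 without 14 and 6. These differences were not tested.

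The 4 largest falls of the ratio were DAL5, DUR3, DUR1,2 and PDR12, all genes whose ORF rose. DAL5 has a 1500 nt leader, which overlaps no annotated gene and holds 33 ATGs, and a 21 nt 3′ part. Its outside reads, counted over both, numbered 68 and 65.9 in glutamine, 151 and 127 in proline and 255 and 215 in dal80Δ. They made up 31.7% of the reads of the transcript in glutamine, 0.752% in proline and 0.209% in dal80Δ (group means). The ratio fell by 5.95 ± 0.22 on the log2 scale (limma adjusted p = 3.35e-12). The rise of the outside reads themselves (1.04 ± 0.22) was not called without either proline replicate (adjusted p up to 0.0481). For DUR3, with a 797 nt leader, outside reads were 49 and 50.1 in glutamine and 51.4 and 39.5 in proline while the ORF rose, their share of the reads went from 4.99% to 0.149%, and the ratio fell by 5.13 ± 0.25.

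DUR1,2, the urea amidolyase, rose on the ORF from 5950 and 3954 to 19950 and 17569 scaled reads (1.95 ± 0.24), and its outside reads fell from 111 and 174 to 48 and 57.9 (-1.38 ± 0.25, limma adjusted p = 4.15e-04, but 0.0233 without replicate 1 of wild-type proline and 0.0709 with total ORF reads). In dal80Δ both rose, to 151764 and 160647 on the ORF and 203 and 219 outside. PDR12, the weak acid exporter, had 5118 and 6376 reads on the ORF in glutamine, 23007 and 24332 in proline and 1491 and 2367 in dal80Δ, but 1060 and 1287, 777 and 841, and 753 and 1643 outside it. Its ratio fell by 2.58 ± 0.16 in proline. The outside reads of PDR12 in dal80Δ spanned those of both other groups, while its ORF reads did not overlap between groups.

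**Figure D5:**
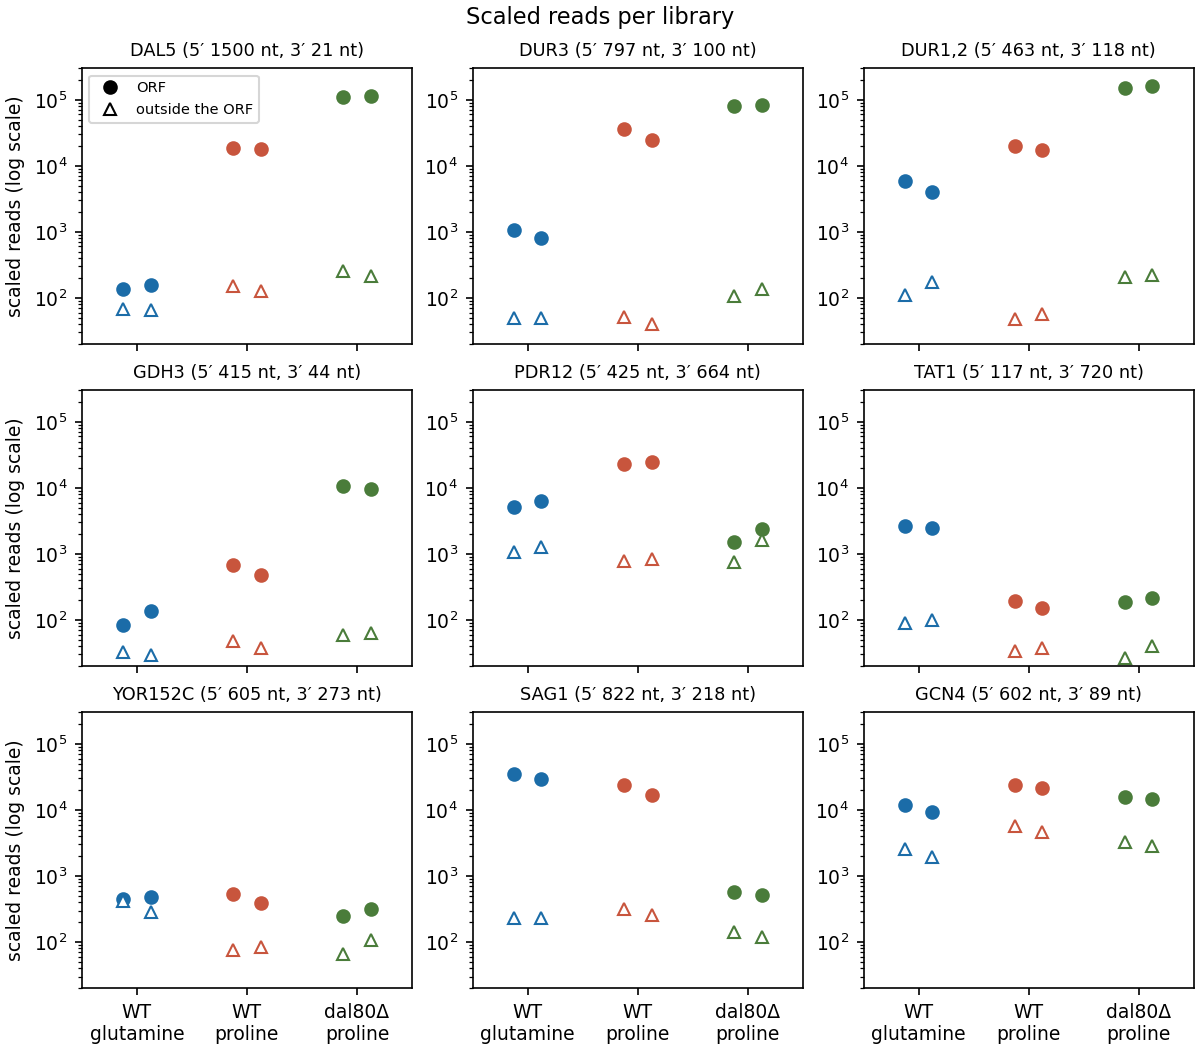
Scaled reads (y axis, log scale) on the ORF (filled circles) and outside it (open triangles) in each of the 6 libraries, by group (x axis), for 9 members. In DAL5, DUR3, DUR1,2 and GDH3 the ORF reads rise by far more than the outside reads, in SAG1 they fall by more in dal80Δ, and in GCN4 both move together.

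The ratio rose most in CTF13, LAS17, TAT1 and FMP48. The 3′ part of CTF13 (2101 nt), a kinetochore gene, holds the ORF of SNZ1 (894 nt of overlap), a gene of vitamin B6 synthesis. Its outside reads were 687 and 693 in glutamine, 5037 and 4094 in proline and 510 and 535 in dal80Δ, while the ORF stayed between 137 and 195, and the ratio rose by 3.08 ± 0.15. In TAT1, with a 720 nt 3′ part, the outside reads fell less than the ORF (89 and 101 to 34.3 and 38.1, a fall that was not called without either proline replicate, adjusted p up to 0.0308, or with total ORF reads, adjusted p = 0.114), and the ratio rose by 2.51 ± 0.28 (limma adjusted p = 7.47e-06). The outside reads of LAS17, the yeast WASP homologue, rose from 11 and 2.95 to 36.3 and 32.2 beside 316 to 390 reads on its ORF in the wild type, and those of FMP48 from 35 and 21.6 to 78.2 and 61.5 while the ORF went from 355 and 566 to 234 and 244. The ratio calls of LAS17 and FMP48 were lost without replicate 1 of wild-type proline (adjusted p = 0.0238 and 0.0162), and their outside calls in 2 and 3 fits without 1 library (adjusted p up to 0.0379 and 0.0662). YNR073C, whose 3128 nt 3′ part lies opposite other genes for 1695 nt, had 8 to 14.6 ORF reads in the wild type and rose outside from 79 and 87.5 to 481 and 481 (2.52 ± 0.21).

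The second comparison sets the dal80Δ strain (MATa) against the wild type (MATα) in proline. The loss of DAL80 and the mating type cannot be told apart in it. On the ORF, 33 of 813 members (4.06%) were higher in dal80Δ and 50 (6.15%) lower, against 3.60% and 4.43% of all ORFs. The median was -0.04 in members and 0.05 in all ORFs. Leaving out replicate 1 of dal80Δ gave 18 higher and 25 lower, replicate 2 of dal80Δ 21 and 26, and replicate 1 of wild-type proline 23 and 27, and scaling to total ORF reads gave 26 and 92 (2.46% and 7.79% of all ORFs). Of the 183 members tested with GATAAG in the 500 nt before the ORF, 19 were higher and 9 lower, and of the 630 without it 14 and 41. In the pairs under the limit these counts were 68 and 51 of 1102, and 102 and 149 of 3711. The difference was not tested.

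The 5 largest rises in dal80Δ were PTR2, GDH3, FIT2, TIS11 and DUR1,2. PTR2, which had fallen in proline, rose from 223 and 216 to 7659 and 8662 (5.21 ± 0.20, limma adjusted p = 5.77e-06). GDH3, an NADP-dependent glutamate dehydrogenase, rose from 687 and 473 to 10841 and 9781 (4.17 ± 0.26). FIT2, a cell wall mannoprotein of siderophore iron uptake, rose from 86.4 and 125 to 2754 and 1234 (4.13 ± 0.35), and TIS11, an RNA-binding protein that lowers mRNAs of iron-using proteins, from 43.2 and 98.9 to 1168 and 627 (3.69 ± 0.41). The TIS11 call was lost without replicate 1 of dal80Δ (adjusted p = 0.013). DUR1,2 rose by 3.06 ± 0.24 and DAL5 by 2.62 ± 0.14. DUR3 rose from 36153 and 24608 to 79686 and 83019 (1.45 ± 0.23), a call lost in 3 of the 6 fits without 1 library (adjusted p up to 0.0385).

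The largest falls were in STE3, SAG1, SST2, PDR12 and YLR042C. STE3, the a-factor receptor, had 5673 and 4734 scaled reads in the wild type and 121 and 135 in dal80Δ (-5.33 ± 0.14, limma adjusted p = 1.64e-06), and SAG1, the α-agglutinin, 24232 and 16960 against 574 and 514 (-5.22 ± 0.20). Both are α-specific genes, and the 2 strains differ in mating type. SST2, a regulator of G-protein signalling in the pheromone response, fell from 5041 and 3311 to 250 and 189 (-4.23 ± 0.22). PDR12 fell by 3.65 ± 0.23, and YLR042C, which had risen in proline, by 3.64 ± 0.26. In STE2, the α-factor receptor of MATa cells, the ORF had 69 and 85.5 reads in glutamine, 1131 and 918 in wild-type proline and 1894 and 2034 in dal80Δ. Its difference between strains (0.94 ± 0.16) was below the fold limit.

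Both comparisons use the wild-type proline libraries, so their values for a gene are not independent. Side by side, the log2 fold changes in proline and in dal80Δ on the ORF were -3.99 and 5.21 for PTR2, -3.04 and 1.61 for RNR1, 2.05 and -3.65 for PDR12 and 2.41 and -3.64 for YLR042C. For DAL5 they were 6.98 and 2.62, and for GDH3 2.40 and 4.17.

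Outside the ORF, 16 of 810 members (1.98%) were higher in dal80Δ and 68 (8.40%) lower, against 1.51% and 4.82% of all 3317 outside parts tested. The median was -0.35 in members and -0.29 in all. Leaving out replicate 1 of wild-type proline gave 6 and 13, replicate 1 of dal80Δ 8 and 21, replicate 2 of wild-type proline 7 and 24 and replicate 2 of dal80Δ 9 and 50. Total ORF read scaling gave 12 and 161 (1.36% and 13.1% of all outside parts). ORF and outside part were both higher in 13 members and both lower in 32, while 20 were higher and 18 lower on the ORF alone and 35 were lower outside it alone. As in proline, these joint counts cover members only. The largest rises were in PTR2 (6.86 and 9.52 to 85.4 and 115), FRE5, CSI2 (6.86 and 6.59 to 64.2 and 35.8), YIR042C (37 and 26.4 to 206 and 197) and DUR1,2. The ORF was called higher as well in 4 of these 5, but not in FRE5, a putative ferric reductase (9.6 and 47.6 to 273 and 135 on the ORF, 5.48 and 22.7 to 113 and 65 outside). The FRE5 call outside was lost in 3 of the fits without 1 library (adjusted p up to 0.0863). CAN1, FRE5 and LEE1, named because they were only 3, rose outside the ORF without a call on it. For LEE1 (146 and 105 to 401 and 292) this call was lost in 3 fits as well (adjusted p up to 0.0743). CAN1, the arginine permease, rose outside from 620 and 534 to 1212 and 1254 (1.10 ± 0.20), beside 18679 and 15453 to 32720 and 34985 on the ORF (0.99 ± 0.17), just under the fold limit.

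The largest falls outside the ORF were STE3, SST2, CTF13, ODC2 and SPO23. STE3 fell from 313 and 241 to 10.2 and 21.5 (-4.12 ± 0.28) and SST2 from 596 and 395 to 45.1 and 49 (-3.34 ± 0.23). ODC2, a mitochondrial 2-oxodicarboxylate carrier with a 489 nt leader, had 123 and 188 outside reads in glutamine, 483 and 359 in wild-type proline and 45.8 and 91.4 in dal80Δ (-2.67 ± 0.30, limma adjusted p = 9.83e-06), while its ORF (4055 and 5217 against 2084 and 2702) was not called. SPO23, with a 700 nt leader and a 25 nt 3′ part, had more reads outside the ORF than on it in glutamine (88 and 114 against 38 and 51.1). It fell outside from 186 and 158 to 26.6 and 38.5 (-2.38 ± 0.25).

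The ratio was higher in dal80Δ in 7 of 806 members (0.868%) and lower in 23 (2.85%), against 0.513% and 1.51% of all pairs, whose median moved by -0.32 (members -0.28). Centred on library medians, 13 were higher and 9 lower (0.936% and 0.453% of all pairs). Without replicate 1 of wild-type proline the counts were 2 and 9, without replicate 2 of it 3 and 13, without replicate 1 of dal80Δ 4 and 8, and without replicate 2 of dal80Δ 2 and 11, and without either glutamine library they were 11 and up to 42. FIT2, CTF13, GDH3 and TIS11 fell most. FIT2 outside reads (39.1 and 30.8 in wild-type proline, 21.9 and 28.6 in dal80Δ) and those of GDH3 (48.7 and 38.1, 59.4 and 64.4) were not called while their ORFs rose, and the ratios fell by 4.59 ± 0.42 and 3.66 ± 0.30 on the log2 scale. In TIS11, whose 1221 nt 3′ part lies opposite other genes for 948 nt, outside reads went from 48 and 51.3 to 94.2 and 60.6.

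SAG1, PDR12, YLR042C and PET18 had the largest rises of the ratio. SAG1 outside reads fell from 312 and 256 to 143 and 121, by far less than its ORF (-1.10 ± 0.21, a call lost in 4 fits without 1 library, adjusted p up to 0.0929), and the ratio rose by 4.12 ± 0.19 (limma adjusted p = 6.88e-11). Its annotated leader has 822 nt and holds 18 ATGs. In PDR12 the outside reads were 777 and 841 in the wild type and 753 and 1643 in dal80Δ beside a fall on the ORF, and the ratio rose by 4.11 ± 0.16. YLR042C, with a 961 nt leader, had 48 and 40.3 outside reads against 23.2 and 35.2, and its ratio call was lost in 2 fits without 1 library (adjusted p up to 0.0176). That of PET18, whose leader overlaps MAK31 for 267 nt, was lost in 4 (adjusted p up to 0.0815).

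The lists that follow are read against all ORFs, of which 13.0% rose and 15.6% fell in proline and 3.60% were higher and 4.43% lower in dal80Δ. Of 13 genes on a list of mRNAs known for upstream ORFs or regulatory leaders, 7 were members: GCN4, CLN3, HAP4, INO2, SCH9, LEU4 and HOL1. On the ORF 2 of the 7 rose in proline and none fell, with a median of 0.44, and over the whole list 4 of 13 rose and none fell (median 0.44, all ORFs 0.04). No member fell by edgeR or DESeq2 either, and 1 was lower at an unadjusted p under 0.05. Total ORF read scaling gave 5 higher of the 7. GCN4 had 11685 and 9417 scaled reads on the ORF in glutamine, 23807 and 21528 in proline and 15711 and 14895 in dal80Δ. Its outside reads, 2529 and 1906, 5625 and 4566, and 3288 and 2888, followed the ORF in each group. GCN4 rose in proline by 1.11 ± 0.18 on the ORF and 1.21 ± 0.24 outside it, both lost without replicate 2 of wild-type glutamine and without replicate 1 of wild-type proline (adjusted p up to 0.0428). The ratio changed by 0.10 ± 0.13 (limma adjusted p = 0.617).

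HAP4, the activator subunit for respiratory genes, rose from 283 and 209 to 604 and 1109 on the ORF (1.75 ± 0.27) and from 77 and 55.1 to 128 and 214 outside (1.33 ± 0.27; not called without replicate 2 of either wild-type group, adjusted p up to 0.0549). LEU4, α-isopropylmalate synthase, with 12 ATGs in its 499 nt leader, was the 1 of 7 called in dal80Δ. It fell from 30856 and 31236 to 4490 and 6370 on the ORF (-2.54 ± 0.21) and from 370 and 343 to 63.5 and 83.2 outside (-2.28 ± 0.23). The other leaders had no call in either comparison. INO2 outside reads, over its 87 nt 5′ part and 535 nt 3′ part together, stayed between 132 and 164. Those of CLN3 were 294 to 500, those of SCH9, a kinase of the TOR pathway, 275 to 431, and those of HOL1 134 to 401.

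Of 11 genes on a list of filamentous growth 9 were found, and 8 of these were members (818 of 5772 among all pairs). FLO11, PHD1 and MIT1 were either not found or not members. Genes were looked up by symbol, so a gene listed under another name would be missed. On the ORF 2 of the 8 rose in proline and 2 were lower in dal80Δ, with no call in the other directions by limma, edgeR or DESeq2, nor at an unadjusted p under 0.05 (medians 0.50 and -0.24). With total ORF reads 7 of the 8 rose in proline and the same number, 2, fell in dal80Δ. TEC1, a transcription factor of filamentation with a 1828 nt leader that holds 33 ATGs, had 309 and 286 scaled reads in glutamine, 968 and 655 in proline and 236 and 208 in dal80Δ (1.42 ± 0.19 and -1.84 ± 0.19; the latter lost without replicate 2 of dal80Δ, adjusted p = 0.0108). Its outside reads were 66.9 to 122 in all 6 libraries, lowest in the dal80Δ pair, and had no call. FLO10, a flocculin with 3396 nt upstream, rose on the ORF from 231 and 271 to 642 and 560 (1.26 ± 0.14). STE12, the pheromone and filamentation factor, fell in dal80Δ from 1647 and 1498 to 524 and 466 on the ORF (-1.67 ± 0.12) and from 260 and 220 to 58 and 82.6 outside (-1.77 ± 0.23, lost without replicate 1 of wild-type proline, adjusted p = 0.0121). FLO8, MSS11, SFL1, MGA1 and SOK2 had no call, and MGA1 had the fewest reads (42.3 to 55.7 on the ORF).

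Of the 20 PUF and mRNA decay genes found, 8 were members (PUF2, PUF3, PUF4, MPT5, NAM7, XRN1, DHH1 and LSM1). XRN1, the main cytoplasmic 5′ exonuclease, was the 1 called. It fell in proline from 11195 and 10549 to 4384 and 4141 on the ORF (-1.35 ± 0.14) and from 885 and 846 to 362 and 357 outside (-1.26 ± 0.21, adjusted p = 0.0125 without replicate 1 of wild-type proline), and both calls were lost when libraries were scaled to total ORF reads (-0.43 and -0.35). None of the 8 was called in dal80Δ by limma, edgeR or DESeq2, on the ORF (2 lower at an unadjusted p under 0.05) or outside it (3 lower). PUF3 outside reads were 153 to 190 in all libraries. PUF4 had the highest density ratio of the 8 (0.928), with 407 of its 446 nt upstream. Of the 16 genes of scanning and initiation, 7 fell in proline (15.6% of all ORFs) and 1 rose in dal80Δ (3.60% of all ORFs), but with total ORF reads 2 rose and 1 fell in proline. TIF4631, for the eIF4G scaffold, was the only member among them, and it had no call (4139 and 2904 on the ORF in glutamine, 2480 and 3150 in proline).

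Of the 15 genes of 3′ end formation and termination, 5 were members (RNA15, HRP1, NRD1, NAB3 and SEN1). HRP1, a cleavage factor, rose on the ORF from 1221 and 1042 to 2264 and 3021 (1.21 ± 0.17), with outside reads of 432 and 321 and then 481 and 494, which were not called. The other 4 had no call in proline. In dal80Δ none of the 5 was called by limma, although 1 was lower on the ORF and 4 outside it at an unadjusted p under 0.05, and edgeR called 1 lower outside. Over the whole list 2 rose in proline. NRD1, which binds its targets together with Nab3 to end short transcripts, had 1331 and 1293 ORF reads in glutamine, 2099 and 2086 in proline and 1400 and 1426 in dal80Δ, and outside reads of 234 and 269, 386 and 363, and 211 and 280. Of 13 GATA factors and nitrogen genes, 9 rose in proline (13.0% of all ORFs). In dal80Δ 4 rose and 4 fell (3.60% and 4.43% of all ORFs). The list holds the deleted gene DAL80, whose fall in dal80Δ was fixed by the deletion. Among the 13, DAL5 was the only member.

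Where the outside part covers another ORF, the values describe both genes. YOR302W is the 78 nt upstream ORF of CPA1, an enzyme of arginine synthesis whose translation this ORF's peptide attenuates, and 1235 of its 1291 nt downstream are the CPA1 ORF. It had 2985 and 2237 scaled reads in glutamine, 6532 and 5686 in proline and 1954 and 2076 in dal80Δ, and 8937 and 7744, 20814 and 21287, and 8318 and 9172 outside. The rise in proline (1.24 ± 0.17 on the short ORF, 1.34 ± 0.26 outside) and the fall in dal80Δ (-1.60 ± 0.17 and -1.27 ± 0.26) were of similar size on both parts. The outside calls were lost in 2 and 3 fits without 1 library (adjusted p up to 0.0261 and 0.0864), and that of the ORF in dal80Δ without replicate 1 of dal80Δ (adjusted p = 0.0131). MAK11, over whose leader SPT23 lies, had 710 and 573 ORF reads in glutamine and 359 and 468 in proline, beside 1087 to 1451 outside reads in all libraries. RRG8 had 113 to 169 reads on its ORF and 2090 to 2917 outside it, with no call. GAL7, downstream of GAL10, had 8 to 43.9 ORF reads, and its outside reads (31 and 36.4 to 75.4 and 71.8) rose by 1.11 ± 0.26, a call lost in 3 fits without 1 library (adjusted p up to 0.0502).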

How the data were processed

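Strand-specific total RNA-seq libraries from rRNA-depleted RNA of 6 cultures (3 groups, 2 replicates each) were analysed. Reads were mapped with TopHat to build R64 according to the notes of the submitters, and only unique alignments were kept according to the study's methods. For replicate 1 of wild-type glutamine the deposited values are unscaled counts. For the remaining 5 libraries they are a signal, namely reads that the authors scaled by a factor per library (0.551 to 0.983). The study's methods describe densities normalised to the total of ORF reads, but relative to replicate 1 of wild-type glutamine the deposited factors of wild-type proline are lower, whereas factors from total ORF reads are higher. All 11987 values per library became whole reads after division by that factor (tolerance 1e-06). The authors' densities (signal per nt) and means were not used. Transcript ends are those of the deposited table; which map they come from is not given in the sources used here.

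Pairs of mRNA and ORF rows (5772) were compared with the RefSeq R64 annotation, where 5735 ORFs had the same coordinates, 32 had others and 5 were not found. ORF reads, outside reads (mRNA minus ORF) and their ratio were fitted in R 4.3.3 with limma 3.58.1, using its trend option, 1 term per group and all 6 libraries, after log2 transformation of scaled reads plus a pseudocount of 1. The model had 3 residual degrees of freedom and 4.54 prior ones for ORFs, 13.96 for outside reads and 14.27 for ratios. Low features were removed with filterByExpr on recovered reads (minimum count 10), which left 5645 ORFs, 3317 outside parts and 3313 ratios. Of the members, 5 were not tested on the ORF, 8 outside it and 12 for the ratio. Fold changes are on the log2(value + 1) scale, which understates low genes, with standard errors. On recovered whole reads, edgeR called 136 members higher and 104 lower on the ORF in proline, and 35 and 51 in dal80Δ. Adjusted p-values (Benjamini-Hochberg) run over all features tested. The p-values measure the spread between these libraries. The fits were also run on simulated data, with the same added spread for every feature and changes in wild-type proline only. That run does not cover the spread of these libraries.

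Alternatives were TMM and total-read scaling, edgeR 4.0.16, DESeq2 1.42.0, no filter, a pseudocount of 5, a replicate block, leaving out each library, an adjusted p limit of 0.05, limits of 300 and 600 nt, and members without same-strand overlap. Named genes were the 6 longest, those nearest the limit, the 5 largest rises and falls called per ORF and outside comparison and 4 per ratio, each without overlap between the groups, the densest, least dense and highest in density ratio, and the members of the fixed lists. Members and lists were chosen with earlier results of these data known.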

Additional observations from a re-analysis of the deposited data

How the results depend on the processing

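Counts of members are given as higher and lower, here and for fits without 1 library, with no share over all features. They do not show whether members moved differently from all features. Shares over all features with total ORF reads or centred ratios are given above. In proline against glutamine, ORF calls (137 and 103) became 424 and 19 with total ORF reads, 296 and 233 at an adjusted p of 0.05 without a fold limit, 210 and 218 with a length limit of 300 nt and 60 and 38 with 600 nt. Outside reads (131 and 66) became 451 and 7, 233 and 117, 203 and 115, and 54 and 25 under the same settings, and 4 and 0 without the filter on low values. Ratio calls (50 and 42) became 125 and 76 at 0.05, 95 higher with 300 nt, 21 and 26 with 600 nt, 22 and 13 without the filter and, centred on library medians, 16 and 77. In dal80Δ against wild type, ORF calls (33 and 50) became 92 lower with total ORF reads, 100 and 168 at 0.05, 55 and 77 with 300 nt and 11 and 25 with 600 nt. Outside reads (16 and 68) became 161 lower with total ORF reads, 31 and 148 at 0.05, 6 and 30 with 600 nt, and 0 and 0 without the filter. Ratio calls (7 and 23) became 13 and 86 at 0.05, 13 higher with 300 nt, 10 lower with 600 nt, 2 and 7 without the filter, 11 higher with a pseudocount of 5 and 13 and 9 when centred. Limits of 300 and 600 nt change how many members there are. With them 1445 and 323 were tested on the ORF, 1404 and 326 outside it and 1400 and 323 for the ratio. Other causes were not tested. TMM factors, edgeR, DESeq2, the members without same-strand overlap and a mean of 50 outside reads (chosen after the data were seen) kept all counts within 1.5 times.

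Leaving out 1 library gave, for proline against glutamine, 120 to 150 higher and 88 to 110 lower on the ORF, 36 to 135 and 29 to 64 outside it, and 14 to 59 and 16 to 45 for the ratio. For dal80Δ against wild type it gave 18 to 38 and 25 to 56, 6 to 22 and 13 to 75, and 2 to 11 and 8 to 42. An arm with 1 library is assumed to vary like the others. Of 131 calls on named members, 79 held in all 6 of these fits, 66 were lost without the filter on low values, 115 held under TMM factors, total ORF reads, edgeR, DESeq2, a pseudocount of 5 and the replicate block alike, and none changed direction under any setting run. The replicate block gave 132 and 103 members on the ORF and 127 and 66 outside in proline, 29 and 44 and 15 and 63 in dal80Δ, and 52 and 45 and 7 and 23 for the ratio. Same-numbered libraries did not deviate together (correlations -0.24, 0.18 and 0.03), so the numbers were not taken to pair cultures. Members with few outside reads limit the depth: 14 to 55 had under 10 in a library.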
